A study of Mus musculus with 5 samples.

Results

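The Cyp2b genes encode cytochrome P450 enzymes of the endoplasmic reticulum that oxidise steroids, fatty acids, drugs and other foreign compounds. The 5 genes described here, Cyp2b9, Cyp2b10, Cyp2b13, Cyp2b19 and Cyp2b23, were taken by name: every non-control probe whose gene name in the array files is one of them was used, which gave 8 of 41174 probes and 5 of 28632 gene names. They were selected on their signals in these same arrays, so their values are given as a description, without a test. Cyp2b10 is the classic phenobarbital-inducible P450 of mouse liver and is switched on through the nuclear receptor CAR. Cyp2b9 and Cyp2b13 are expressed mainly in female liver, and the male pattern of growth hormone secretion, acting through STAT5b, keeps them low in males. Cyp2b19 is known as a P450 of skin keratinocytes.

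The arrays hold liver RNA of male C57BL/6J mice, an inbred laboratory strain, at 25 weeks of age. Control mice were untreated. HFHFr-F mice ate a diet rich in fat and fructose (HFHFr) for 20 weeks and HFHFr-N mice ate it for 16 weeks and then a normal diet for 4 weeks. HFHFr-FA mice also had 16 weeks of the HFHFr diet, followed by 4 weeks on it with all-trans retinoic acid, the active form of vitamin A, and HFHFr-NA mice had the same 16 weeks followed by 4 weeks of normal diet with retinoic acid. The labels call the HFHFr-F mice severely insulin resistant, the HFHFr-N mice insulin resistant, the HFHFr-NA mice recovered and the HFHFr-FA mice free of insulin resistance with slight steatosis. Each group is 1 array of RNA pooled from 5 mice, so no difference has a replicate check and "higher" and "lower" describe these pools.

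Signal is given as a multiple of the array's own 75th percentile over non-control spots, and its error is the one the scanner software gives for that spot. This error covers the spot only and leaves out differences between mice and arrays. Between 46.7% and 49.4% of spots were well above background per array, and the number of arrays limits the precision. The HFHFr-FA array was alone on its slide while the other 4 shared a slide, so in every comparison with HFHFr-FA the slide and the group cannot be told apart. All 9 hepatocyte markers, such as Alb and Ttr, were well above background on every array. In RNA of a whole tissue, fewer cells of a type and less RNA per cell cannot be told apart.

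The probes are 60 bases long, and their sequences are shown because the Cyp2b genes are close relatives and the choice of probe decides some of the results. Each is named by its gene and by the start position in the transcript that the array file gives. Positions are on the mm9 build, on the + strand unless stated, and the sequences run 5′ to 3′. Whether a probe lies in an exon's coding part or elsewhere was not worked out, for lack of an mm9 genome here. Of Cyp2b9 base 1804 and Cyp2b13 base 1565 only the first 30 bases are printed.

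Cyp2b9 base 717, chr7:26983484-26983543: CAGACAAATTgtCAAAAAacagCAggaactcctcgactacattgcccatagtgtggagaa
Cyp2b23 base 656, chr7:27460121-27460180, - strand: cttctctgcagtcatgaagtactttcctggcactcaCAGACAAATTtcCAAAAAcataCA
Cyp2b9 base 1804, chr7:26995607-26995666: taaggtctgatttctatgtctacagacttg
Cyp2b13 base 1314, chr7:26873757-26880713: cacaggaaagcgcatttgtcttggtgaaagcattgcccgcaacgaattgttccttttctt
Cyp2b13 base 1565, chr7:26880905-26880964: agagctgctggaaactagactgtatgttgc
Cyp2b10 base 1088, chr7:26702056-26702115: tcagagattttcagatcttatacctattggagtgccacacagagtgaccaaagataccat
ENSMUST00000005477 base 1289, chr7:26702417-26711087: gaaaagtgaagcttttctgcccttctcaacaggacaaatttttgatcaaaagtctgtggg

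Capitals in the Cyp2b9 base 717 and Cyp2b23 probes mark the bases at which these 2 probes match where they overlap, 18 of 24. This pair has the highest share of matching bases among the member probes, and it gave different readings, since Cyp2b23 was not above background on any array. The array file lists only Cyp2b9 for Cyp2b9 base 717 and only Cyp2b13 for Cyp2b13 base 1565. It lists Cyp2b9 and Cyp2b10 for Cyp2b9 base 1804. For Cyp2b13 base 1314 it lists Cyp2b13, Cyp2b9, Cyp2b10 and Cyp2b23, so that signal from these relatives was not separated in the last 2. The 60 bases of Cyp2b13 base 1314 span 6957 genomic bases and therefore cross a splice junction. The last sequence belongs to a probe that is no member by name: the file names it by an Ensembl transcript, describes it as cytochrome P450 2B10 and places it beside the Cyp2b10 probe, across 8671 bases. The Cyp2b10 probe lists the same Ensembl transcript among its identifiers. No other probe of the array outside the 8 members carried one of their identifiers.

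Cyp2b9 and Cyp2b13 were low in the control pool, highest in HFHFr-F and intermediate in the other groups, and all 4 of their probes were well above background on all 5 arrays. Cyp2b9 base 717 read 0.154 in Control, 3.26 in HFHFr-F, 1.66 in HFHFr-FA, 1.21 in HFHFr-N and 0.267 in HFHFr-NA. Cyp2b13 base 1565 read 0.165 in Control, 3.92 in HFHFr-F, 1.18 in HFHFr-FA, 1.14 in HFHFr-N and 0.226 in HFHFr-NA. In both probes that list a single gene, the pool still on the HFHFr diet without retinoic acid was thus the highest and the untreated pool the lowest.

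The probes shared with relatives gave the same order. Cyp2b9 base 1804 read 2.76 in Control, 66.1 in HFHFr-F, 34.4 in HFHFr-FA, 22.8 in HFHFr-N and 7.49 in HFHFr-NA. Cyp2b13 base 1314 read 0.698 in Control, 14.9 in HFHFr-F, 7.43 in HFHFr-FA, 5.30 in HFHFr-N and 1.44 in HFHFr-NA. Spot errors of these 4 probes were 18.8% of the signal at most, for Cyp2b9 base 717 in Control. None of their spots was saturated or marked as an outlier, although the local background of Cyp2b9 base 1804 was marked as one in Control. The order was HFHFr-F, HFHFr-FA, HFHFr-N, HFHFr-NA and Control for each of the 4 probes. The step from HFHFr-FA to HFHFr-N was the smallest: 0.46 ± 0.21 (log2, spot error) for Cyp2b9 base 717, 0.59 ± 0.20 for Cyp2b9 base 1804 and 0.49 ± 0.20 for Cyp2b13 base 1314. For Cyp2b13 base 1565 it was 0.04 ± 0.21, within the spot error, so these 2 pools have no order in that probe.

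**Figure D1:**
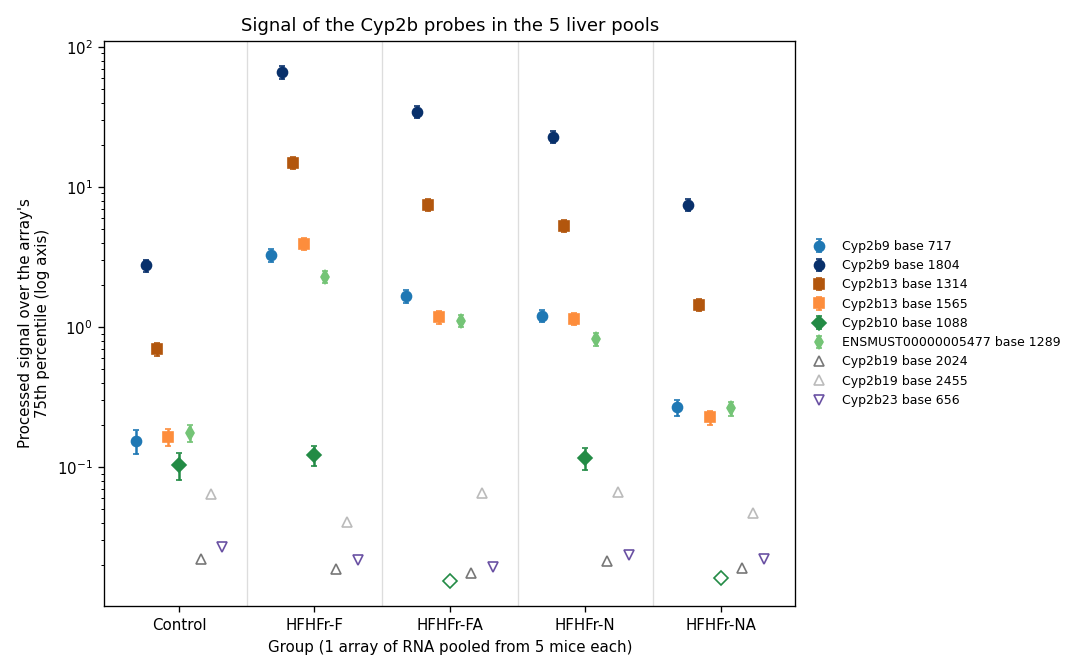
Processed signal over the array's 75th percentile (log axis) for each Cyp2b probe and the probe named by the Ensembl transcript, in the 5 groups. Each point is 1 array of pooled RNA, bars are the scanner's spot error, and open points were not well above background; levels of different probes cannot be set against each other. The 4 probes of Cyp2b9 and Cyp2b13 go up and down together, with Cyp2b9 base 1804 between 2.76 in Control and 66.1 in HFHFr-F, while Cyp2b19 and Cyp2b23 stay below background throughout.

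Cyp2b10 base 1088 was dim. It read 0.104 in Control, 0.122 in HFHFr-F and 0.116 in HFHFr-N, with spot errors of 21.3%, 16.6% and 18.0%, and was not well above background in HFHFr-FA and HFHFr-NA. The 3 measured pools did not differ beyond the spot error. The 2 pools in which it was not measured are the 2 that had retinoic acid. The faintest probe that was well above background read 0.0755 in HFHFr-FA and 0.0743 in HFHFr-NA, so the probe sat close to the limit of the arrays even where it was measured.

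The probe named by the Ensembl transcript, which the file also describes as Cyp2b10, read otherwise. It gave 0.175 in Control, 2.28 in HFHFr-F, 1.11 in HFHFr-FA, 0.819 in HFHFr-N and 0.264 in HFHFr-NA, with spot errors of 14.1% or less. It was well above background on every array and followed the order of Cyp2b9 and Cyp2b13. Laid along Cyp2b13 base 1314 without gaps it matched at best 11 of 19 overlapping bases, and along Cyp2b9 base 717 it matched 14 of 26. These matches between probes do not show which transcripts the probe binds. Whether its signal comes from Cyp2b10, from relatives or from both was not tested.

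Cyp2b19 and Cyp2b23 were not well above background in any of the 5 groups. The Cyp2b19 probes start at bases 2024 and 2455, on chr7:27550443-27550502 and chr7:27557410-27557469. Of 7 keratinocyte markers, which define the cells known for Cyp2b19, 3 to 5 were well above background per array, Krt10 and Lor among them, while Ivl and Flg were not on any array. Their summed level ran from 2.68 to 3.68. These arrays therefore give no value for Cyp2b19 or Cyp2b23 in liver beyond that limit, and no ratio is given.

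The first comparison, HFHFr-F against Control, covers 20 weeks of the diet. The probes of Cyp2b9 and Cyp2b13 were more than 20-fold brighter in the HFHFr-F pool, while the probe named Cyp2b10 was not. A log2 ratio is the log2 of the first group's signal over the second's, and a gene is represented by its brighter probe. Cyp2b9 base 1804 was higher by 4.58 ± 0.20 (23.9-fold, spot error) and Cyp2b9 base 717 by 4.40 ± 0.31 (21.2-fold). Cyp2b13 base 1314 was higher by 4.42 ± 0.21 (21.4-fold) and Cyp2b13 base 1565 by 4.57 ± 0.26 (23.8-fold). The 4 ratios lay within their spot errors of each other, whether or not the probe lists relatives.

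Counted with the brighter probe, 2 of the 3 measured members were at least 2-fold higher, beside 5.40% of the 14632 genes measured on at least 1 of these arrays. The comparison is one on which the members were chosen, so nothing is read from their share. Among the 13353 genes measured on both arrays Cyp2b9 ranked 2 and Cyp2b13 ranked 4 from the highest. Cyp2b10 base 1088 had a ratio of 0.24 ± 0.39 and ranked 2937. The probe named by the Ensembl transcript was higher by 3.71 ± 0.25, which is 3.47 ± 0.46 above the ratio of the probe named Cyp2b10. For the 3754 genes with at least 2 probes measured on all arrays, the ratios of their 2 brightest probes differed by a median of 0.18, and by up to 0.55 in 9 of 10 genes. With the Ensembl probe in place of the named one, an alternative added after seeing the data, 3 members count as higher.

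After 4 weeks of normal diet Cyp2b9 and Cyp2b13 still read above the control. In HFHFr-N against Control, Cyp2b9 base 717 was higher by 2.97 ± 0.31 (7.84-fold) and Cyp2b9 base 1804 by 3.05 ± 0.20 (8.27-fold). Cyp2b13 base 1314 was higher by 2.92 ± 0.21 (7.59-fold) and Cyp2b13 base 1565 by 2.80 ± 0.26 (6.96-fold). Cyp2b9 and Cyp2b13 had the 2 highest ratios of the 13520 genes measured on both arrays, ahead of all others. Again 2 of 3 measured members were at least 2-fold higher, beside 1.15% of 14507 genes. Cyp2b10 base 1088 gave 0.16 ± 0.40 and the probe named by the Ensembl transcript 2.23 ± 0.25 (4.68-fold).

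Against HFHFr-F, which shares its signal with the first comparison, HFHFr-N was lower in the same probes. The log2 ratios were -1.43 ± 0.21 for Cyp2b9 base 717, -1.53 ± 0.20 for Cyp2b9 base 1804, -1.50 ± 0.20 for Cyp2b13 base 1314 and -1.78 ± 0.21 for Cyp2b13 base 1565. The HFHFr-F signal was thus 2.70-fold to 3.43-fold that of HFHFr-N. The count was 2 of 3 measured members at least 2-fold lower, beside 3.63% of 14802 genes, and Cyp2b9 ranked 118 and Cyp2b13 ranked 135 from the lowest of 13656 genes. Cyp2b10 base 1088 gave -0.07 ± 0.35.

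**Figure D2:**
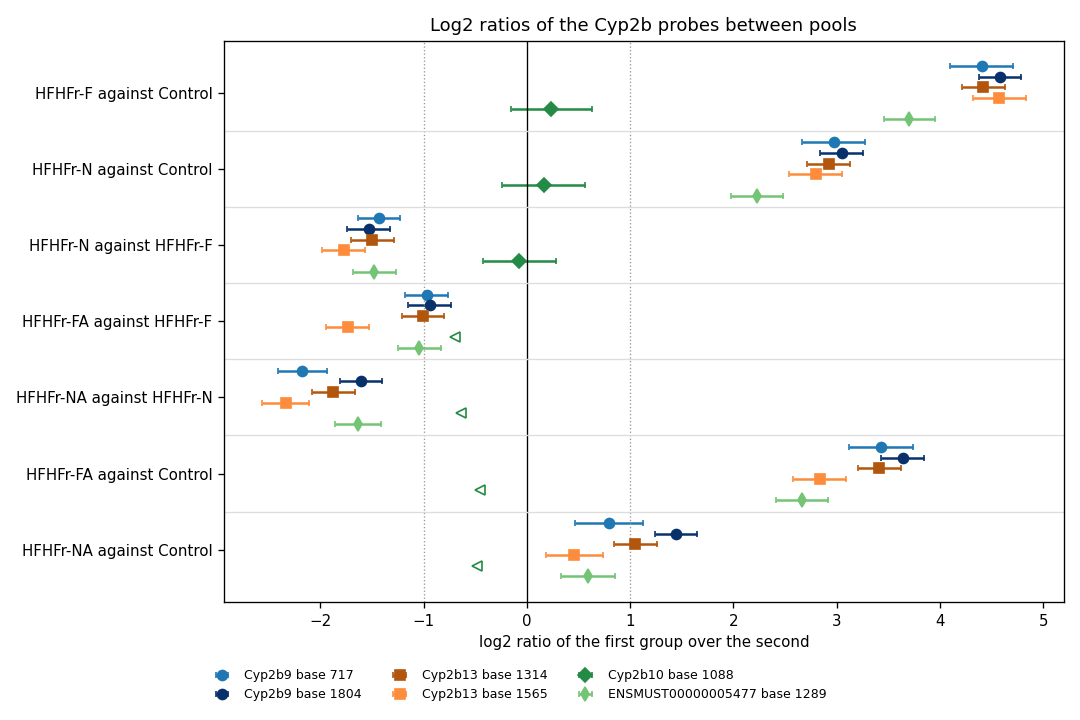
Log2 ratio between pools for each comparison and probe. Bars are spot errors, dotted lines mark 2-fold, and open triangles are Cyp2b10 values that are bounds and carry no spot error. The 4 probes of Cyp2b9 and Cyp2b13 lie together at 4.40 to 4.58 in HFHFr-F against Control, and Cyp2b13 base 1565 stands apart at -1.74 in HFHFr-FA against HFHFr-F.

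HFHFr-FA was set against HFHFr-F to describe retinoic acid given while the HFHFr diet went on. Cyp2b9 was near 2-fold lower in the HFHFr-FA pool, and Cyp2b13 was lower by an amount that depended on the probe. Cyp2b9 gave -0.97 ± 0.20 with base 717 and -0.94 ± 0.20 with base 1804. Cyp2b13 gave -1.01 ± 0.20 with base 1314, which lists relatives, and -1.74 ± 0.20 (3.33-fold lower) with base 1565, which does not. The probes listing a single gene thus differed by 0.76 ± 0.29 between Cyp2b13 and Cyp2b9, above their spot error. The 2 probes of 1 gene differed by up to 0.52 in 9 of 10 genes in this comparison.

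By the brighter probe 1 of 3 measured members, Cyp2b13, was at least 2-fold lower in HFHFr-FA, beside 2.83% of 14930 genes. Cyp2b9 lay just outside the 2-fold limit and Cyp2b13 just inside it, and both were within the spot error of it. The count was 0 when the 75th percentile was taken over probes detected on all 5 arrays and 2 with median centring. From the lowest, Cyp2b9 ranked 398 and Cyp2b13 ranked 337 of 13796 genes. For Cyp2b10 base 1088, measured in HFHFr-F only, HFHFr-FA was at least 1.62-fold lower. Such bounds set the measured signal against the faintest probe that was well above background on the other array. The gene's own signal there was used if higher. The bounds carry no spot error and are not strict limits. In Control, where the faintest such probe read 0.0863, the cholangiocyte marker Krt19 read 0.103 without being well above background. The probe named by the Ensembl transcript gave -1.04 ± 0.21.

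Retinoic acid in the normal diet was described by HFHFr-NA against HFHFr-N. Both genes were lower, by more than in the comparison within the HFHFr diet for each of the 4 probes. Cyp2b9 gave -2.18 ± 0.23 (4.52-fold lower) with base 717 and -1.61 ± 0.20 (3.05-fold) with base 1804. Cyp2b13 gave -1.87 ± 0.20 (3.67-fold) with base 1314 and -2.34 ± 0.23 (5.06-fold) with base 1565. The probes that list a single gene gave the lower value for both genes.

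In that comparison 2 of 3 measured members were at least 2-fold lower, beside 1.33% of 14875 genes. Cyp2b13 ranked 9 and Cyp2b9 ranked 22 from the lowest of 13810 genes measured on both arrays. Cyp2b10 base 1088 was at least 1.56-fold lower in HFHFr-NA, and the probe named by the Ensembl transcript gave -1.64 ± 0.22 (3.11-fold lower). The difference between the 2 retinoic acid comparisons was not tested, and HFHFr-FA was on another slide.

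Set against Control, the pools given retinoic acid differed in how much signal remained. In HFHFr-FA against Control, Cyp2b9 was higher by 3.43 ± 0.31 (10.8-fold) with base 717 and by 3.64 ± 0.20 (12.5-fold) with base 1804, and Cyp2b13 by 3.41 ± 0.21 (10.6-fold) with base 1314 and by 2.84 ± 0.26 (7.15-fold) with base 1565. Here 2 of 3 measured members were at least 2-fold higher, beside 4.47% of 14798 genes. The probe named by the Ensembl transcript was higher by 2.66 ± 0.25 (6.33-fold). The bound put the probe named Cyp2b10 at least 1.37-fold lower. It rests on a Control signal of 0.104 with a spot error of 21.3%, so the direction of that dim probe is uncertain.

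In HFHFr-NA against Control, the pools came closest. Cyp2b9 was higher by 0.79 ± 0.33 (1.74-fold) with base 717 and by 1.44 ± 0.20 (2.71-fold) with base 1804. Cyp2b13 was higher by 0.46 ± 0.27 (1.38-fold) with base 1565 and by 1.05 ± 0.21 (2.07-fold) with base 1314. The brighter probes put 2 of 3 measured members at least 2-fold higher, beside 2.0% of 14728 genes, whereas neither gene passed 2-fold with the probe that lists it alone. The Ensembl probe gave 0.59 ± 0.26. Cyp2b10 base 1088 was at least 1.39-fold lower by a bound that rests on the same dim Control signal.

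The Cyp2b genes lie on chromosome 7 among other P450 genes. In the RefSeq order of assembly GRCm38.p6, Cyp2b10 comes first, followed by Cyp2b13, Cyp2b9, Cyp2a4, Cyp2b23 and Cyp2b19, with further genes and Cyp2b pseudogenes between them. The array has 34 probes from this stretch and the 200000 bases on either side, of which 8 are the members, and 14 of the other 26 were measured on all 5 arrays. Next to the members, the 3 probes of Cyp2a4, a female-biased steroid hydroxylase gene, gave log2 ratios of 1.59 to 1.72 in HFHFr-F against Control. In HFHFr-FA against HFHFr-F they gave -1.68 to -1.65, and in HFHFr-FA against Control -0.09 to 0.06. Cyp2a5, a coumarin hydroxylase gene whose sequence the Cyp2a4 probes also list, gave 1.23 and -1.26 in these comparisons, and Cyp2a22 gave 0.81 and -1.20.

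Other probes of the stretch did not follow the members. A probe named ENSMUST00000065861, which the file describes as a fragment of a testosterone hydroxylase and places between Cyp2b10 and Cyp2b13, read 3.98 in Control, 2.15 in HFHFr-F, 3.06 in HFHFr-FA, 2.91 in HFHFr-N and 2.52 in HFHFr-NA. Its HFHFr-F pool was the lowest, with a log2 ratio of -0.89 against Control. Cyp2g1, a P450 known from olfactory tissue, read 0.168 in Control, 0.190 in HFHFr-F, 0.408 in HFHFr-N and 0.434 in HFHFr-NA, and was not well above background in HFHFr-FA. It was higher by 1.28 in HFHFr-N against Control and by 0.17 in HFHFr-F. Of the 7 P450 genes in the list of this cluster beside the members, 2 were at least 2-fold higher in HFHFr-F than in Control and 0 lower, beside 5.40% and 3.21% of all genes; their median was 0.34 and that of all genes -0.08. The HFHFr-FA pool had 0 of them higher and 4 lower than HFHFr-F, beside 2.71% and 2.83% of all genes, and their median was -1.20 against 0.03.

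**Figure D3:**
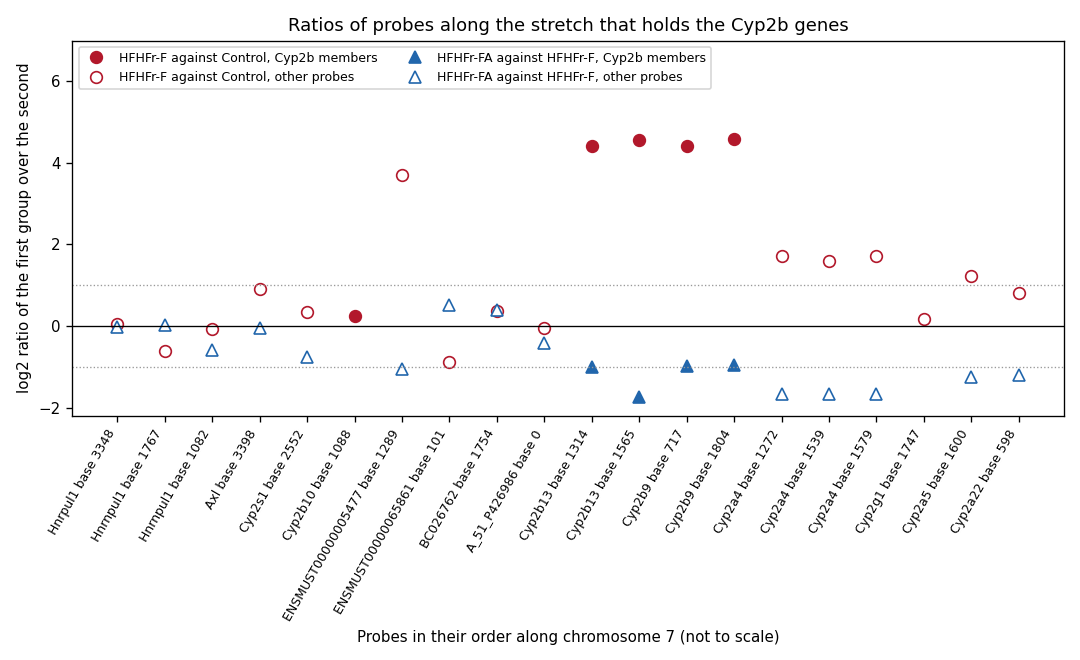
Log2 ratios of probes in their order along the stretch of chromosome 7 that holds the Cyp2b genes (spacing not to scale), for HFHFr-F against Control (circles) and HFHFr-FA against HFHFr-F (triangles); filled symbols are members, dotted lines mark 2-fold, and probes not measured on both arrays are left out. The Cyp2b13 and Cyp2b9 probes at 4.40 to 4.58 and the Ensembl probe at 3.71 stand above the Cyp2a4 probes at 1.59 to 1.72 and the probe named Cyp2b10 at 0.24.

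The promoters of Cyp2b9 and Cyp2b13 are shown because the ratios of the 2 genes had the same direction in each of the 7 comparisons. That of Cyp2b10 is shown beside them. Its dim named probe showed no difference beyond the spot error where both pools were measured. The other comparisons gave only bounds, by which HFHFr-FA and HFHFr-NA lay below Control, opposite to Cyp2b9 and Cyp2b13. The probe named by the Ensembl transcript had the direction of Cyp2b9 and Cyp2b13 in all 7. The sequences are from RefSeq, build GRCm38.p6, and run from 250 bases before the gene's start to 50 after it, all on the + strand. Capitals mark the bases at which Cyp2b9 and Cyp2b13 differ from each other and, in Cyp2b10, the bases without an identical partner in the alignment with Cyp2b9.

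Cyp2b9, chr7:26173159-26173458: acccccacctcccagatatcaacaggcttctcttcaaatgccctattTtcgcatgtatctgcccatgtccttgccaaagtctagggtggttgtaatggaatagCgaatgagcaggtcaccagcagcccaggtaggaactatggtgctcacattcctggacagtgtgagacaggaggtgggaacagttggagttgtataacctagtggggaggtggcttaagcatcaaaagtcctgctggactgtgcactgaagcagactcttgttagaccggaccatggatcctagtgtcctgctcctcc
Cyp2b13, chr7:26061245-26061544: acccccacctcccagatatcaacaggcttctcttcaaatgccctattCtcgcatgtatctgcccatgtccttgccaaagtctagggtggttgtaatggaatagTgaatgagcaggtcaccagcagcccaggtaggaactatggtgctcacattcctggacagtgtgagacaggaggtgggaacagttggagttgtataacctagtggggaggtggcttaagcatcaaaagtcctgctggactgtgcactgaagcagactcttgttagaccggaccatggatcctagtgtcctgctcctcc
Cyp2b10, chr7:25897408-25897707: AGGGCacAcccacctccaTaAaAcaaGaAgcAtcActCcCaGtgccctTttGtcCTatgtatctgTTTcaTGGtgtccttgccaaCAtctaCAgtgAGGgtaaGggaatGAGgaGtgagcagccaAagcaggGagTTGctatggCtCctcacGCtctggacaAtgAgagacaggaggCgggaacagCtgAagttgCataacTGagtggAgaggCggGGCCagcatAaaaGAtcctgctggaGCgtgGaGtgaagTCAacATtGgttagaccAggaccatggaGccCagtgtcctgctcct

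The Cyp2b9 and Cyp2b13 windows were identical at 298 of 300 bases. The differences are T48C and C104T, with the Cyp2b9 base before and the Cyp2b13 base after the position, counted from 1 at the 5′ end of the window, which puts them 203 and 147 bases before the start. Cyp2b10 matched either of them at 223 bases, with 66 mismatches and 22 gap positions. Cyp2b19 matched Cyp2b9 at 213 and Cyp2b23 at 212 bases. Direct repeats of AGNTCA spaced by 1, 2, 4 or 5 bases, the types bound by HNF4, retinoic acid receptors and CAR, were searched on both strands, as was the STAT5 type TTCNNNGAA. None of them was found in the windows of the 5 members. They occur in 0.219%, 0.107%, 0.125%, 0.204% and 8.30% of the 32851 promoter windows in the table. The single element AGGTCA, found in 16.3% of all windows, stands 138 bases before the start in Cyp2b9 and Cyp2b13, 121 in Cyp2b19 and 164 in Cyp2b23, and was not found in Cyp2b10. A match or its absence in this short window is a description of letters.

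The genes whose pattern over the 5 arrays was nearest to the members were found among 13129 genes well above background on every array. Likeness was measured as the root mean square difference of log2 signal after centring each gene on its own mean. Nearest to all 4 probes of Cyp2b9 and Cyp2b13 was the probe named by the Ensembl transcript, at 0.28 to 0.37. The member probes themselves were 0.11 to 0.41 apart. Among the next nearest were, for Cyp2b9 base 1804, Cpxm1 (0.70), a carboxypeptidase family gene, Col1a1 (0.71), a chain of type I collagen, and Dsg1c (0.71), a desmoglein. For Cyp2b13 base 1565 they included H2-Q1 (0.65), a histocompatibility gene, Col1a1 (0.68) and Ly6d (0.70). The chemokine gene Ccl2 (0.76) was among the 5 nearest to Cyp2b9 base 717. Cyp2b10 could not enter, since it was not measured on all arrays.

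Col1a1 shows how far the likeness goes. Its log2 signal was 4.12 above Control in HFHFr-F, 2.40 in HFHFr-FA, 0.97 in HFHFr-N and 0.52 in HFHFr-NA. It thus had the order of the Cyp2b9 and Cyp2b13 probes, but was nearer to Control in HFHFr-N, where these probes were 2.80 to 3.05 above it. Dsg1c was 2.88 above Control in HFHFr-F, 1.88 in HFHFr-FA, 1.70 in HFHFr-N and 1.01 in HFHFr-NA, again in that order and over a narrower range. With normexp background correction and quantile normalization, only 2 of the 5 nearest genes stayed the same for Cyp2b9 base 717, Cyp2b9 base 1804 and Cyp2b13 base 1314. Col1a1 and Dsg1c were then not among the 5 nearest to any Cyp2b9 or Cyp2b13 probe. The Ensembl probe was then nearest to Cyp2b9 base 717 only. It ranked 2 for Cyp2b9 base 1804 and 3 for both Cyp2b13 probes.

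**Figure D4:**
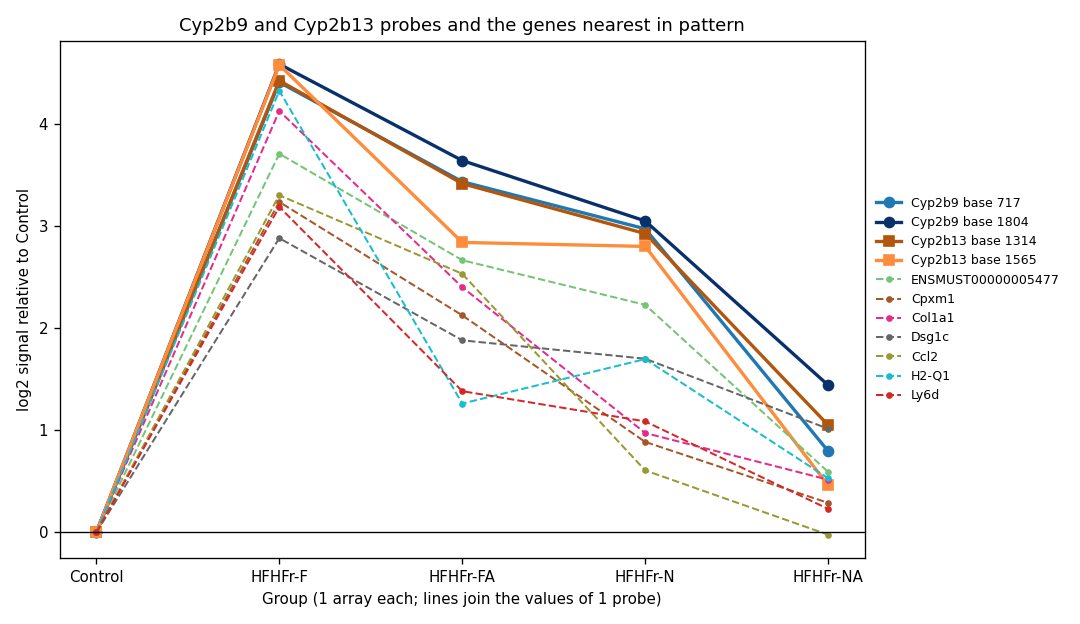
Log2 signal relative to Control in the 5 groups for the 4 probes of Cyp2b9 and Cyp2b13 (solid lines) and for 7 of the genes nearest to them in pattern (dashed lines), 1 array per group; lines join values of 1 probe and imply no order of groups. The 7 genes reach 2.88 to 4.32 in HFHFr-F and lie below the Cyp2b probes there and in HFHFr-N.

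The genes of CAR, PXR and STAT5b were within 2-fold of Control on every array. Nr1i3, which encodes CAR, read 10.3 in Control, 10.2 in HFHFr-F, 9.49 in HFHFr-FA, 12.0 in HFHFr-N and 11.2 in HFHFr-NA. Nr1i2, which encodes the related receptor PXR, lay between 6.18 and 8.35, and Stat5b, the mediator of growth hormone signals, between 6.24 and 8.93. Por, the reductase that passes electrons to P450 enzymes, read 128 in Control, 139 in HFHFr-F, 186 in HFHFr-FA, 148 in HFHFr-N and 268 in HFHFr-NA. It was more than 2-fold above Control in HFHFr-NA (1.06), and its log2 ratio in HFHFr-NA against HFHFr-N was 0.86, in the opposite direction to Cyp2b9 and Cyp2b13.

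The list of CAR and PXR genes holds receptors and other regulators as well as targets. In HFHFr-F against Control 29 of its measured genes were within 2-fold. Of 34 measured genes in that list, 1 was at least 2-fold higher than in Control and 4 were at least 2-fold lower, beside 5.40% and 3.21% of all genes. Their median was -0.03 and that of all genes -0.08. Cyp2a5 was the higher one (1.23), and Cyp3a11, the main drug-metabolising P450 of the Cyp3a family (-1.70), and Cyp2c54 (-1.61) were among the lower ones. Cyp2c29, a P450 that CAR activators induce, gave -0.94. In HFHFr-N against Control 0 were higher and 1 lower, the growth arrest gene Gadd45b at -1.68, beside 0.834% of all genes lower. In HFHFr-FA against HFHFr-F 1 was higher and 8 lower, beside 2.71% and 2.83% of all genes (median -0.24 against 0.03), with the glutathione transferases Gsta2 at -2.75 and Gsta1 at -1.98 and Cyp3a11 at -1.85. In HFHFr-NA against HFHFr-N 0 were higher and 4 lower, beside 1.51% and 1.33% of all genes (median -0.28 against 0.02), Gsta2 at -1.85 and Cyp3a11 at -1.21 among them.

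Genes of growth hormone signalling and of female liver split. In HFHFr-F against Control 5 of 20 measured genes passed 2-fold upward and 4 downward, beside 5.40% and 3.21% of all genes, and the median was 0.21 against -0.08. With normexp background correction and quantile normalization 2 were higher and 4 lower. Among the higher ones were Abcd2, a peroxisomal fatty acid transporter (1.93), Cyp2a4 (1.59) and the fatty acid carrier Cd36 (1.14). Hao2, a peroxisomal hydroxy acid oxidase, was not well above background in Control and was higher by at least 2.94-fold. Lower were the Cyp3a genes Cyp3a16 (-1.76), Cyp3a44 (-1.42) and Cyp3a41a (-1.29) and the growth hormone target Socs2 (-1.33). The Cyp3a genes are close relatives whose shared signal was not separated. In HFHFr-FA against HFHFr-F 1 of 20 was higher, Socs2 at 1.79, and 6 were lower, beside 2.71% and 2.83% of all genes (median -0.43 against 0.03), including Cyp2a4 at -1.68 and Cyp3a44 at -1.63. In HFHFr-NA against HFHFr-N 0 of 18 were higher and 2 lower, Abcd2 at -1.23 and Cd36 at -1.15, beside 1.51% and 1.33% of all genes (median -0.39 against 0.02).

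Male-biased genes were lower in HFHFr-F, where Cyp2b9 and Cyp2b13 were highest, but did not mirror these 2 genes over all pools. In HFHFr-F against Control 0 of 22 measured genes passed 2-fold upward and 10 downward, beside 5.40% and 3.21% of all genes, and the median was -0.86 against -0.08. The 10 include the organic anion transporter Slco1a1 (-3.29), the growth factor receptor Egfr (-2.25), Cyp4a12b (-2.18) and the oxysterol hydroxylase Cyp7b1 (-1.62). In HFHFr-N against Control, where Cyp2b9 was 8.27-fold higher by its brighter probe, 0 were higher and 2 lower, with Egfr at -1.83 and Elovl3, a fatty acid elongase, at -1.52, beside 1.15% and 0.834% of all genes. The HFHFr-FA pool had 0 higher and 7 lower than Control, beside 4.47% and 1.95% of all genes, with a median of -0.53 against -0.07. The HFHFr-NA pool had 0 higher and 3 lower, beside 2.0% and 1.45%, with a median of -0.41 against 0.05. That was below the HFHFr-N median of -0.27 (all genes 0.03), although Cyp2b9 and Cyp2b13 read lower in HFHFr-NA. Against HFHFr-F the HFHFr-FA pool had 6 higher and 0 lower, Slco1a1 at 2.90 and Egfr at 1.76 among them, beside 2.71% and 2.83% of all genes. In HFHFr-NA against HFHFr-N 1 was higher and 2 lower, beside 1.51% and 1.33%. Slco1a1 read 6.37 in Control, 0.652 in HFHFr-F, 4.88 in HFHFr-FA, 4.53 in HFHFr-N and 3.76 in HFHFr-NA.

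**Figure D5:**
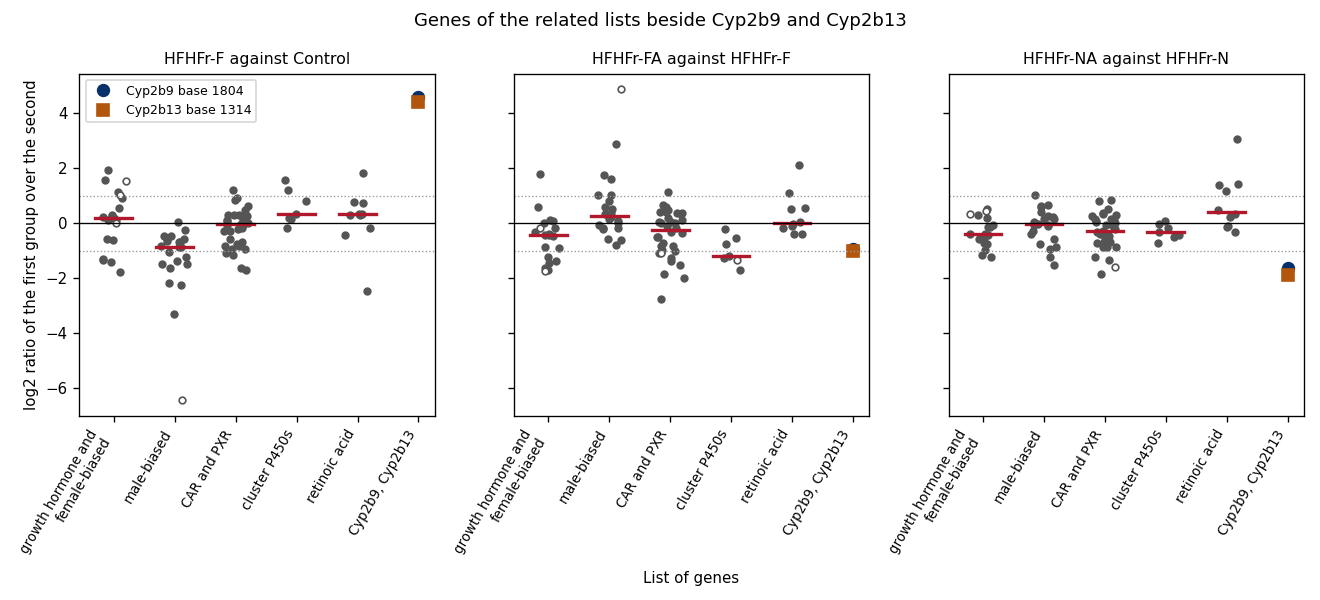
Log2 ratios of the measured genes of 5 lists (grey points, open where the value is a bound, with red bars at the median) beside the brighter probes of Cyp2b9 and Cyp2b13, in 3 comparisons; dotted lines mark 2-fold. In HFHFr-F against Control the members at 4.58 and 4.42 lie above every listed gene, and the male-biased genes have a median of -0.86.

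Cyp26a1 and Cyp26b1, which respond to retinoic acid, were higher in each pool that received it than in the pool on the same diet without it. In HFHFr-FA Cyp26a1 was still below Control (-1.36). Cyp26a1, which degrades retinoic acid, read 1.53 in Control, 0.276 in HFHFr-F, 0.596 in HFHFr-FA, 1.46 in HFHFr-N and 3.84 in HFHFr-NA. Its ratio was 1.11 in HFHFr-FA against HFHFr-F and 1.40 in HFHFr-NA against HFHFr-N, and the related Cyp26b1 gave 2.12 and 3.06. In the latter comparison 4 of 10 measured genes of this list were at least 2-fold higher and 0 lower, beside 1.51% and 1.33% of all genes, and in the former 2 were higher and 0 lower, beside 2.71% and 2.83%. The receptor gene Rarb, a direct target, was among the 4 at 1.19.

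Markers of other liver cell types also differed between pools, and most did not have the order of the members. Summed levels of lipid-associated macrophage markers had that order, but not each marker did. Spp1, the largest part of the HFHFr-F sum, read 9.98 in HFHFr-FA and 10.1 in HFHFr-N. Trem2, Cd63 and Lpl read higher in HFHFr-NA than in HFHFr-N (Trem2 1.24 and 0.649), whereas Spp1 read lower (7.47 and 10.1). Stellate cell and fibroblast markers summed highest in HFHFr-FA, and cholangiocyte and macrophage markers summed lowest in HFHFr-NA. Among lipid-associated macrophage markers 6 of the 7 measured were at least 2-fold higher in HFHFr-F than in Control, beside 5.40% of all genes higher and 3.21% lower, and their summed level was 96.2 in HFHFr-F against 17.1 to 25.6 on the other arrays. Cholangiocyte markers were at least 2-fold higher in 4 of 6 cases, with a summed level of 62.3 against 8.50 to 11.3. Spp1 stands in both lists and read 60.4 in HFHFr-F. Macrophage markers were at least 2-fold higher in 3 of 8 cases (summed level 129 in HFHFr-F, 65.3 to 119 elsewhere) and stellate cell and fibroblast markers in 3 of 7 (102 in HFHFr-F, 72.7 to 107 elsewhere). Hepatocyte markers summed to 2251 in HFHFr-F, 2380 in HFHFr-FA, 2786 in HFHFr-N, 3001 in Control and 3170 in HFHFr-NA. Periportal hepatocyte markers were lower in 3 of 8 cases in HFHFr-F against Control (median -0.92) and pericentral ones in 1 of 8, with 1 higher (median -0.39). Markers of lung airway cells, where other Cyp2 genes are expressed, were at or near background, with Scgb1a1, Sftpb and Sftpc not well above it on any array. The part of these cells in the Cyp2b signals was not tested. In HFHFr-N against Control, Cyp2b9 and Cyp2b13 had the highest ratios of the 13520 genes measured on both arrays. There 2 of 6 lipid-associated macrophage markers and 0 of 5 cholangiocyte markers were at least 2-fold higher, beside 1.15% of all genes.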

How the data were processed

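Each group's RNA, pooled from 5 livers, went onto 1 single-channel Agilent mouse array, labelled with Cy3, per the labels. The deposited processed intensity comes from Feature Extraction 10.5.1.1, which subtracted background, removed spatial trends and put substitutes in place of dim spots, per the file headers, without scaling between arrays. Mean and local background intensity were deposited unaltered. Each value of the deposited value table equals that processed intensity as a linear ratio to a constant of its array, uncentred and in the direction of the signal, as found by comparing both. The source of the constant is not given here.

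In the main setting the log2 processed intensity, less that of the array's 75th percentile (43379 spots), was averaged per probe, leaving out outlier spots. That percentile was 174 for Control, 172 for HFHFr-N, 180 for HFHFr-NA, 223 for HFHFr-F and 212 for HFHFr-FA. RefSeq accessions named 24844 probes through the GRCm38.p6 gene table and 16330 kept the name in the file, which can be old. The probe with the highest mean signal stood for a gene. A gene entered a comparison if either array measured it well above background. If only 1 did, its ratio is a bound, and 0 if the bound would change sign. Genes at least 2-fold apart were counted in 7 comparisons. With 1 array per group there is no test, p-value or standard deviation.

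The members and lists (5 of pathways, 9 of cell type markers, with 161 of 165 symbols on the array) were chosen with earlier results of these data known. The text names the members with all probes, up to 3 genes per list and comparison with the largest ratio measured on both arrays, 9 fixed genes, and the 5 genes nearest to a member in pattern. The Ensembl probe, the neighbours on chromosome 7, and list genes given as bounds or with smaller ratios were named after their values were seen. Some items that the rule names are not reported here. All 5 members matched a promoter in the RefSeq table, and promoters were aligned with Biopython 1.88. There were 10 kinds of alternative and 1 more, the Ensembl probe for Cyp2b10, added after seeing the data. The code for ratios and counts was tested on simulated data. Software was R 4.3.3, limma 3.58.1, Python 3.11.15, numpy 2.4.6 and pandas 2.3.3.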

Additional observations from a re-analysis of the deposited data

How the results depend on the processing

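Directions of the Cyp2b9 and Cyp2b13 ratios held under all alternatives run, with ranges of 4.40 to 4.68 and 3.91 to 4.57 in HFHFr-F against Control, and -1.04 to -0.82 and -1.74 to -0.98 in HFHFr-FA against HFHFr-F. Of 84 counts of members under the alternatives 9 moved by more than 1.5 times. In HFHFr-FA against HFHFr-F the count was 1 and became 2 with median centring, with no filter on dim probes or with the Ensembl probe for Cyp2b10 (chosen after seeing the data), and 0 with the percentile over probes detected on all 5 arrays. In HFHFr-NA against Control the count was 2 and became 1 with normexp and quantile normalization, with median centring, with the mean of a gene's probes, and with the single-gene probe of Cyp2b9 or of Cyp2b13. Without a filter on dim probes, where Cyp2b10 enters with substitute values, its ratio was -2.98 in HFHFr-FA against HFHFr-F and -2.83 in HFHFr-NA against HFHFr-N.

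Counts of all genes at least 2-fold apart, in the order HFHFr-F, HFHFr-N, HFHFr-FA and HFHFr-NA against Control, then HFHFr-FA against HFHFr-F, HFHFr-NA against HFHFr-N and HFHFr-N against HFHFr-F, were 1260, 288, 949, 508, 828, 423 and 857. With normexp, whose offset of 50 pulls dim probes together, and quantile normalization they were 477, 78, 265, 127, 285, 93 and 268. With no filter they were 3121, 1844, 2743, 2245, 2463, 2111 and 2730. Over genes detected on all 5 arrays, which are fewer, they were 168 for HFHFr-N and 298 for HFHFr-NA against Control, 220 for HFHFr-NA against HFHFr-N and 561 for HFHFr-N against HFHFr-F. The share of these genes that was higher went from 62.7% to 74.2% with cyclic loess in HFHFr-F against Control and to 50.05% with no filter. In HFHFr-FA against Control it went from 69.7% to 52.9% with no filter. In HFHFr-NA against Control it went from 58.1% to 49.4% with median centring and 48.8% with normexp and quantile normalization. In HFHFr-N against HFHFr-F it went from 37.2% to 24.4% with cyclic loess and 25.6% with median centring, but to 54.8% with no filter on dim probes. In HFHFr-FA against HFHFr-F it went from 48.9% to 35.3% with median centring. The median of all genes moved from -0.08 to 0.02 with cyclic loess in HFHFr-F against Control, and in HFHFr-N against HFHFr-F from 0.10 to -0.01 with cyclic loess or median centring. No paired analysis was possible because each group has 1 array. No replicate could be left out for the same reason.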

Other observations

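Of 6 listed Cyp3a genes, P450 enzymes that share inducers with the Cyp2b family, 5 had their lowest signal in HFHFr-FA, where Cyp2b9 and Cyp2b13 were still above Control. Cyp3a11 read 276 in Control, 85.0 in HFHFr-F, 23.5 in HFHFr-FA, 248 in HFHFr-N and 107 in HFHFr-NA. Cyp3a41a read 766 in Control, 312 in HFHFr-F, 122 in HFHFr-FA, 810 in HFHFr-N and 617 in HFHFr-NA. In HFHFr-FA against Control the ratios were -3.55 for Cyp3a11, -3.21 for Cyp3a16, -3.05 for Cyp3a44 and -2.65 for Cyp3a41a. Cyp3a13 was the exception, lowest in HFHFr-F (-0.28 against Control) and above Control in HFHFr-FA (0.31). These genes are close relatives whose shared signal was not separated, and HFHFr-FA was alone on its slide.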
